A study of Sus scrofa domesticus with 4 samples.

Results

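Receptors for oestrogen (ESR1 and ESR2), progesterone (PGR), oxytocin (OXTR) and prolactin (PRLR) were examined in slices of pig endometrium, the lining of the uterus, cultured with or without orexin A (OXA). The 5 genes were chosen by function and found on the array by the RefSeq accession of each probe. They were represented by 8 of 43603 probes and were 5 of the 3029 genes that could be named: ESR1 had 4 probes, and ESR2, PGR, OXTR and PRLR had 1 each. Orexin A is a neuropeptide best known for promoting wakefulness and appetite. The tissue came from 4 Large White x Polish Landrace gilts, 7 to 8 months old, on days 15 to 16 of pregnancy. After 2 h in medium alone, slices spent 24 h with OXA, at 10 nM by the sample labels but 10 µM by the series' design text, and control slices spent the same time untreated. The labels say that 4 experiments were run per group, each with duplicate cultures. Each of 4 Agilent 2-colour arrays set 1 OXA-treated RNA against 1 control RNA, so each group had 4 samples. Slices keep the cell types of the endometrium but not its blood supply or the conceptus. The labels do not tie an array to a gilt, so p-values speak only for these arrays, and part of the spread between them may be technical. The SEs and p-values of limma, the linear model used, also draw on the variance of all tested probes. They are therefore not the spread of a gene's own 4 ratios alone. In a whole tissue, fewer cells of a type and less RNA per cell cannot be told apart.

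The oestrogen and progesterone receptors are nuclear proteins that bind their steroid and then act on gene promoters. In pig pregnancy, oestrogen made by the conceptuses is the signal that maintains the corpora lutea, and progesterone keeps the uterus in its secretory state, acting largely through receptors in the stroma once the epithelium has lost them. The oxytocin receptor is a G protein-coupled receptor of the cell surface through which oxytocin stimulates uterine prostaglandin release and contraction. The prolactin receptor is a cytokine-type receptor that signals through JAK2 and STAT5 and is known for its part in uterine gland function.

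By the dye labels of the single samples, Cy5 carried the OXA-treated RNA on arrays 1 and 3, and Cy3 carried it on arrays 2 and 4, whereas the labelling protocol puts it in Cy5 throughout. The sample labels were used. The authors' deposited table of log2 ratios has the same swap: on all 4 arrays it rose with the scanner ratios signed by the sample labels (slopes of 1.00 to 1.06). Array 1 came from a separate slide, with its scan 71 days later than that of the other 3. It had 31.7% of probes well above background in Cy3, against 52.0% to 56.7% on the others, while Cy5 gave 62.3% to 74.5%. Saturated spots numbered 0, and precision is limited by having 4 arrays. Ratios of OXA over control correlated between pairs of arrays with r from -0.22 to 0.40 across 26927 probes, which are not independent replicates. All 6 epithelial markers that could be named (EPCAM, CDH1, KRT8, CLDN3, CLDN4 and CLDN7) were well above background in at least 4 of 8 readings.

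A reading is 1 dye of 1 array, so each probe had 8 readings, 4 of control and 4 of OXA-treated tissue. A reading is well above background where the scanner software marked it so. Probes for OXTR, PGR and the brightest of ESR1 passed in 8 of 8 readings. The second ESR1 probe passed in 5 of 8, and the other 2 ESR1 probes in 1 and 0 of 8. The ESR2 and PRLR probes passed in 0 of 8. Spots that should bind nothing (153 negative controls per array) had median intensities of 154 to 251 in Cy3 and 68 to 74 in Cy5. The OXTR spot was 4.26 to 67.2 times the negative-control median of its own dye and array, the PGR spot 3.35 to 35.1 times, and the brightest ESR1 spot 2.38 to 26.9 times. ESR2 lay at 0.912 to 1.19 times that median and PRLR at 0.876 to 1.30 times. No more than 8 readings of 1 probe bear on each of ESR2 and PRLR. None of these readings was marked as well above background, which does not show that the receptors were absent.

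**Figure D1:**
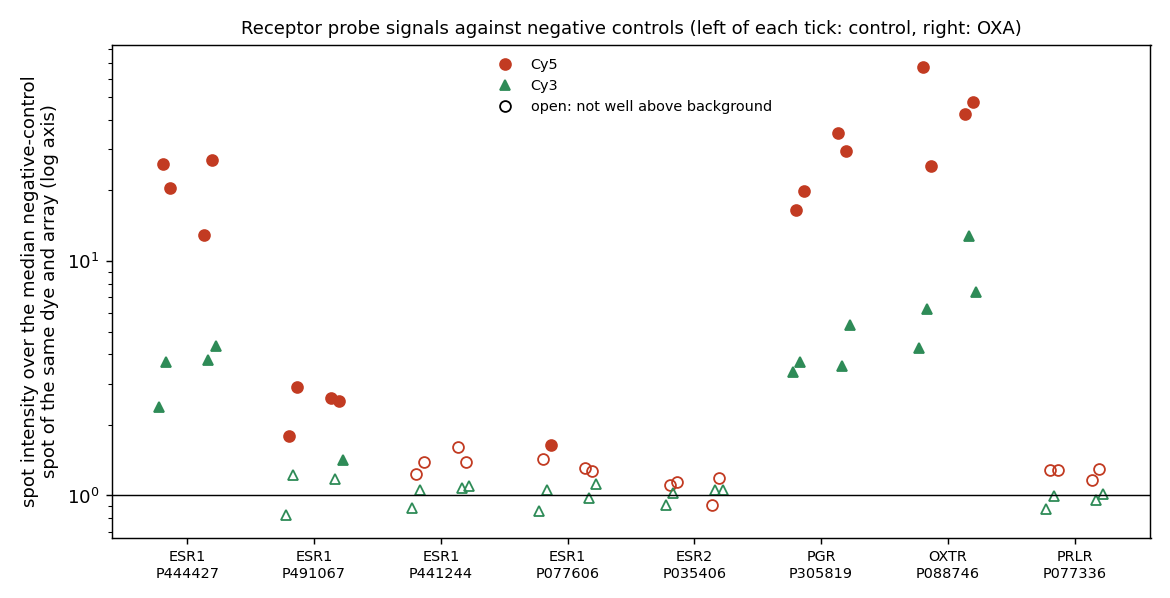
Spot intensity of the 8 receptor probes over the median negative-control spot of the same dye and array (log axis). Circles are Cy5 and triangles Cy3, control readings lie left of each tick and OXA readings right of it, and open symbols were not well above background. OXTR, PGR and the brightest ESR1 probe stand clear of the line at 1, while all 16 readings of ESR2 and PRLR are open and lie near it.

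Of the 8 probes, 4 met the filter used for testing, which was to be well above background in at least 4 of 8 readings: 2 for ESR1 and 1 each for PGR and OXTR. None of these 4 changed with OXA by limma's test over all 26927 probes that met it, and neither did any other probe (0% past an adjusted p of 0.05). Without adjustment, 1713 probes, or 6.36% of those tested, had a p under 0.05, and 0 of the 4 receptor probes were among them. The fitted log2 ratio was within 0.1 of 0 for 33.8% of probes and for 0 of the 4 receptor probes. The count past the adjusted threshold was 1 without array 1, 35 without array 2, 0 without array 3 and 25 without array 4. These fits, and all others without 1 array, kept the dye term. The array left alone in its dye then had as much weight as the other 2 together. The only residual degree of freedom was the difference between the 2 arrays that shared a dye. These counts are therefore not read as effects of OXA. The lowest adjusted p that ESR1, PGR or OXTR reached under any alternative was 0.411, for OXTR without array 3. On the slide that held more than 1 array (arrays 2 to 4), the log2 ratios of OXA over control were -0.16 for ESR1, 0.12 for PGR and 0.13 for OXTR.

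ESR1, the main oestrogen receptor of the uterus, was measured in both dyes of all 4 arrays by 1 of its 4 probes. This brightest probe, A_72_P444427, had a normalized level (log2 intensity of 1 dye after scaling within and between arrays) in control tissue of 9.42, 10.28, 9.79 and 10.04 on arrays 1 to 4. In OXA-treated tissue the level was 9.32, 9.65, 9.86 and 9.90. OXA was lower on arrays 1, 2 and 4 and higher on array 3, and the 2 groups overlapped. The log2 ratios of OXA over control were -0.10, -0.63, 0.07 and -0.14, so that array 2 held most of the difference. The fit gave -0.20 (SE 0.17, n = 4 arrays), a fold of 0.872 with a 95% interval of 0.662 to 1.15 (limma, adjusted p = 0.777). Without array 2 it was -0.07, and without array 4 it was -0.32.

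The second ESR1 probe, A_72_P491067, was dimmer, and only on array 4 were both of its readings well above background. On arrays 1 and 3 the control reading was not, and on array 2 the OXA reading was not. Its control levels were 6.39, 7.08, 7.28 and 7.49 and its OXA levels 7.56, 7.02, 7.20 and 7.58 on arrays 1 to 4, with the groups overlapping. The log2 ratios were 1.16, -0.06, -0.08 and 0.09. Only array 1 was far from 0, and there the control spot, at 206.5 in Cy3, lay under the negative-control median of 251. The ratio on array 4, where both readings were measured, was 0.09. No fold is drawn from this probe, and its fitted value (limma, adjusted p = 0.760) is not a second measurement of the direction of ESR1. The 2 dimmest ESR1 probes were too near background for a fold. All 4 probes carry the same accession, and their places along the transcript were not analysed here.

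ESR2, the beta form of the oestrogen receptor, was at the level of the negative controls. Its spot read 229, 76.5, 163 and 84.5 in control tissue and 62, 162, 82 and 176 in OXA-treated tissue on arrays 1 to 4. The readings from 162 to 229 are the Cy3 readings and those from 62 to 84.5 the Cy5 readings, so the order followed the dye, as it did in the negative controls. Of the 8 readings, 7 were at or under the 95th percentile of the negative controls of the same dye and array. No fold is given.

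PGR, the progesterone receptor, was measured in every sample. Its control levels were 10.18, 9.70, 9.80 and 9.98 on arrays 1 to 4, and its OXA levels 10.74, 9.55, 9.99 and 10.23. OXA was higher on arrays 1, 3 and 4 and lower on array 2, and the groups overlapped. Control levels spanned a fold of 1.40 between arrays and OXA levels a fold of 2.28. The log2 ratios were 0.56, -0.14, 0.19 and 0.25, and the fit gave 0.21 (SE 0.18, n = 4 arrays), a fold of 1.16 with a 95% interval of 0.880 to 1.53 (limma, adjusted p = 0.764). The value was 0.12 both without array 1 and without array 4.

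OXTR, the oxytocin receptor, had the highest intensity over negative controls of the 8 probes, a quantity that also depends on the probe. Its control levels were 10.53, 11.40, 10.67 and 10.35 on arrays 1 to 4, and its OXA levels 11.01, 11.54, 10.64 and 10.78. Array 2 was the highest in both groups, and levels spanned a fold of 2.08 between arrays in control and 1.87 in OXA-treated tissue. The fit uses ratios within an array, so this spread of levels is not its error. The log2 ratios were 0.48, 0.14, -0.03 and 0.44, with OXA higher on arrays 1, 2 and 4 and next to control on array 3. The fit gave 0.25 (SE 0.18, n = 4 arrays), a fold of 1.19 with a 95% interval of 0.901 to 1.58 (limma, adjusted p = 0.737). Without array 1 it was 0.13, and without array 3 it was 0.38.

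PRLR, the prolactin receptor, was near background. Its spot read 220, 88.5, 158 and 95 in control tissue and 79, 147.5, 89.5 and 169 in OXA-treated tissue on arrays 1 to 4, again ordered by dye. Of the 8 readings, 5 were at or under the 95th percentile of the negative controls, and none was marked as well above background. The readings over that percentile were all in Cy5. They were 88.5 and 95 in control tissue on arrays 2 and 4 (percentiles 82.4 and 87.9) and 89.5 in OXA-treated tissue on array 3 (81.1). No fold is given.

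**Figure D2:**
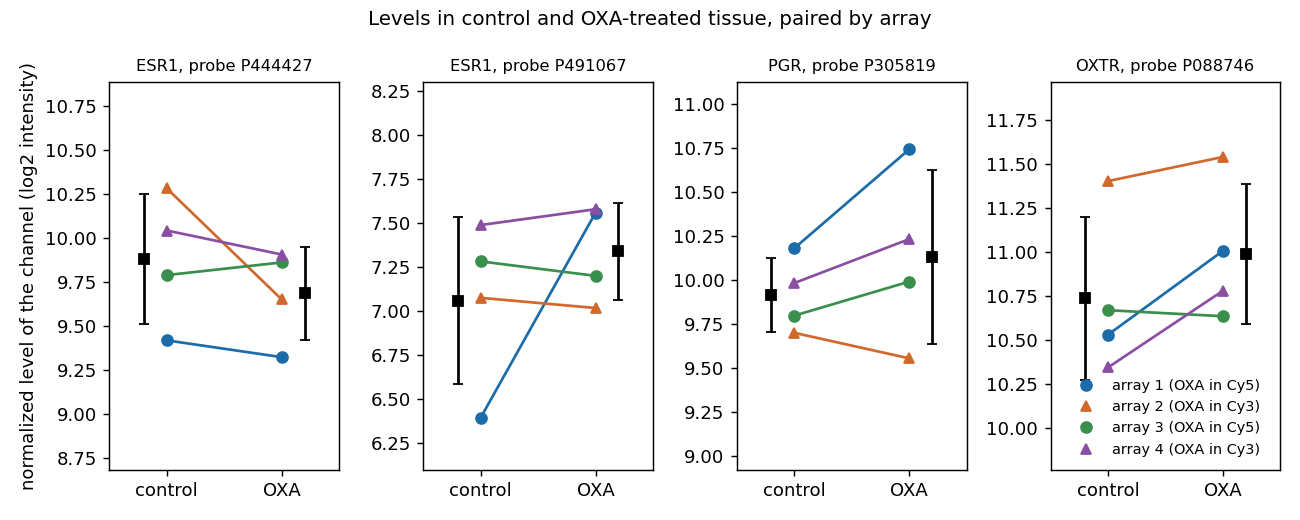
Normalized level (log2 intensity of 1 dye) of the 4 tested receptor probes in control and OXA-treated tissue, with lines joining the 2 RNAs of an array and squares giving mean ± SD over 4 arrays; all panels span the same range of log2 units. Levels differ between arrays, and each panel has lines that rise and lines that fall.

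The 4 tested probes were also described without a model. With 4 arrays the exact sign-flip permutation test, two-sided, cannot go under p = 0.125. This exact test gave p = 0.25 for the brightest ESR1 probe, 0.625 for the second ESR1 probe, 0.25 for PGR and 0.25 for OXTR. None of the 4 had the same sign on 4 of 4 arrays, a pattern that 12.8% of all tested probes showed (7.14% above 0 and 5.7% below).

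**Figure D3:**
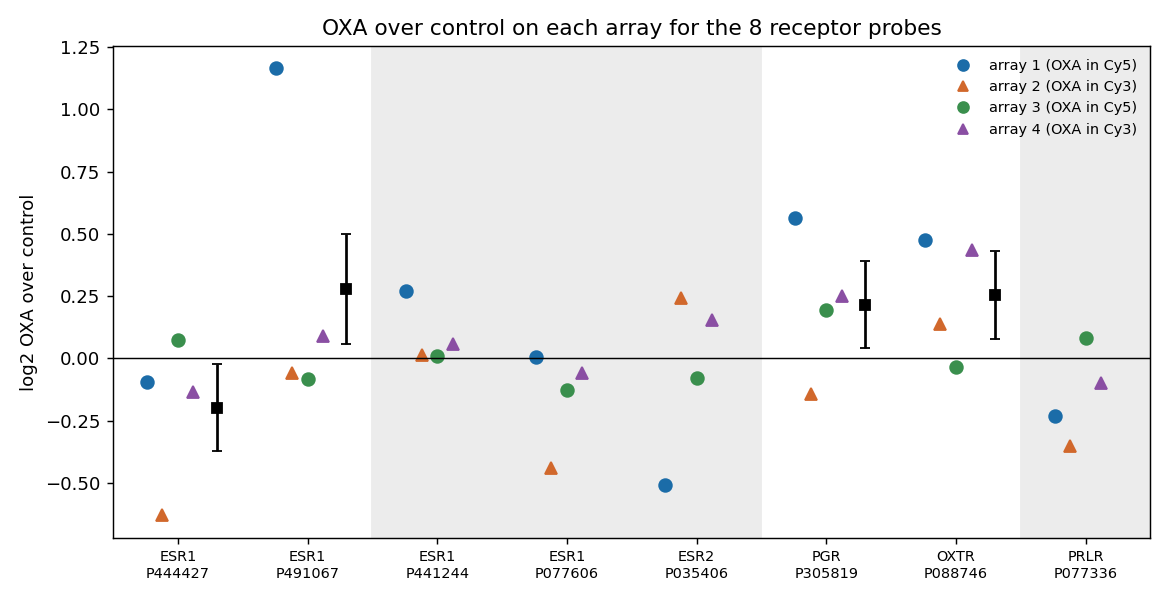
Log2 ratio of OXA over control on each array for the 8 receptor probes, with circles where OXA was in Cy5, triangles where it was in Cy3, and black squares for the fit ± SE over 4 arrays. Probes on grey were not tested because they were too near background. The ratio of 1.16 on array 1 for the second ESR1 probe is far from its other 3 values, which lie between -0.08 and 0.09.

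Differences between receptors on the same array depended on which dye carried OXA. They are given first by the dyes of the sample labels. The ESR1 ratio (brightest probe) minus the PGR ratio was -0.66, -0.49, -0.12 and -0.39 on arrays 1 to 4, a mean of -0.41 ± 0.22 (SD, n = 4). By these dyes it was below 0 on 4 of 4 arrays, and the exact sign-flip test gave p = 0.125, the smallest it can give (0.375 after Benjamini-Hochberg adjustment over 3 pairs). ESR1 minus OXTR was -0.57, -0.77, 0.11 and -0.57, a mean of -0.45 ± 0.38 (SD, n = 4; exact p = 0.25, adjusted 0.375). PGR minus OXTR averaged -0.04 ± 0.24 (SD, n = 4; exact p = 0.875, adjusted 0.875), with PGR above OXTR on arrays 1 and 3 and below it on arrays 2 and 4. With OXA read as Cy5 on every array, as the labelling protocol words it, arrays 2 and 4 turn sign. ESR1 minus PGR is then -0.66, 0.49, -0.12 and 0.39, below 0 on 2 of 4 arrays, with a mean of 0.02 ± 0.53 (SD, n = 4; exact p = 1, adjusted 1). ESR1 minus OXTR is then above 0 on 3 of 4 arrays, with a mean of 0.22 ± 0.60 (SD, n = 4; exact p = 0.375, adjusted 0.5625). PGR minus OXTR is then above 0 on 4 of 4 arrays, with a mean of 0.20 ± 0.08 (SD, n = 4; exact p = 0.125, adjusted 0.375). No order of the 3 receptors held in both readings, of which the authors' deposited table follows the first.

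The genes most like each receptor were taken as those with the smallest root mean square difference of the 4 array ratios, over 2406 other named genes. For ESR1 they were TNF (a cytokine; 0.046), CEND1 (0.049) and TUSC5 (0.061), against a median of 0.44 over all genes compared. For PGR they were UPK2 (a uroplakin; 0.072), AMT (an enzyme of glycine breakdown; 0.075) and GTF2H4 (a subunit of a general transcription factor; 0.087), against a median of 0.49. For OXTR they were RHOT2 (a mitochondrial GTPase; 0.099), AXL (a receptor tyrosine kinase; 0.10) and IDH3B (a subunit of isocitrate dehydrogenase; 0.11), against a median of 0.50. Within a difference of 0.1 there were 9 genes for ESR1, 6 for PGR and 1 for OXTR.

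Other genes of these hormone pathways were read through 4 lists. No gene of any list passed limma's test over all probes, and the share past it over the 2407 named genes was 0%. Before adjustment 156 named genes (6.48%) had a p under 0.05, of which 30 were higher (1.25%) and 126 lower (5.23%). All named genes together had a median of -0.05, with 59.8% below 0 and 40.2% above.

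Nuclear receptors, with their cofactors and chaperones, had 18 of 35 genes tested, of which 11 were below 0 and 7 above, with a median log2 ratio of -0.06. One was under an unadjusted p of 0.05, and it was lower. NCOA4, an androgen receptor cofactor also known for ferritin breakdown, was -0.42 (SE 0.18), and from -0.56 to -0.27 with 1 array left out. NR3C1, the glucocorticoid receptor, was -0.28 (SE 0.16), with -0.32, -0.23, -0.23 and -0.33 on arrays 1 to 4. HSPA8, a chaperone of steroid receptors, was 0.24 (SE 0.16). NR2F2, a stromal orphan receptor of the uterus, was 0.30 (SE 0.21). Its ratio was 1.40 on array 1, and arrays 2 to 4 ranged from -0.26 to 0.24. The fit was 0.011 without array 1 and 0.59 without array 3, where array 1 had more weight. VDR (the vitamin D receptor) and FOXA1 (a factor that opens chromatin for steroid receptors) were on the array but too dim to test.

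Genes known to respond to oestrogen or progesterone in the uterus had 20 of 36 tested, with 12 below 0, 8 above and a median of -0.08. Of these, 3 were under an unadjusted p of 0.05, all lower. IHH, a progesterone-induced signal from epithelium to stroma, was -0.62 (SE 0.19), but its arrays split by dye, with -1.81 and -1.02 where OXA was in Cy5 and 0.15 and 0.20 where it was in Cy3. STC1, stanniocalcin, a secreted product of uterine glands, was -0.66 (SE 0.22). Array 3 gave -1.60, and the other arrays ranged from -0.58 to -0.05. The fit was -0.37 without array 3 and -0.95 without array 1, where array 3 had more weight. LIF, a cytokine of implantation, was -0.45 (SE 0.17), with -0.90 and -0.77 where OXA was in Cy5 and -0.31 and 0.18 where it was in Cy3. FST, follistatin, an activin-binding protein, was 0.42 (SE 0.19). Array 4 gave -0.24, and the other arrays ranged from 0.47 to 0.97. The fit ran from 0.24 without array 2, where array 4 had more weight, to 0.61 without array 4. None of these 4 passed after adjustment (limma, adjusted p = 0.698 for each).

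Oxytocin and peptide hormone receptor signalling had 12 of 32 genes tested, with 8 below 0, 4 above, a median of -0.11 and 0 genes under an unadjusted p of 0.05 in either direction. OXT, the oxytocin precursor, was -0.43 (SE 0.21), with -1.04, -0.52, -0.62 and 0.47 on arrays 1 to 4, below control on the first 3 and above it on array 4. Without array 2 the fit was -0.18 and without array 4 it was -0.68. GNA11, a G protein subunit through which the oxytocin receptor signals, was -0.28 (SE 0.18), and GRK2, a kinase that desensitises such receptors, was -0.24 (SE 0.18), and they were -0.15 and -0.080 without array 2. RGS4, an inhibitor of their G proteins, was -0.32 (SE 0.27), from ratios of -1.67 on array 3 and 0.96 on array 4. It was -0.00065 without array 3, -0.027 without array 2, -0.65 without array 1 and -0.62 without array 4. Without array 2, for example, array 4 had as much weight as arrays 1 and 3 together. Its value thus depended on which arrays were fitted and on their weights. PTGFR, the receptor of prostaglandin F, was on the array but above background in only 1 of 8 readings.

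Prolactin and cytokine receptor signalling had 14 of 24 genes tested, with 10 below 0, 4 above, a median of -0.16 and 0 genes under an unadjusted p of 0.05. STAT5A and STAT5B, the transcription factors that the prolactin receptor activates, were -0.29 (SE 0.19) and -0.29 (SE 0.17). STAT5B was below 0 on 4 of 4 arrays (-0.71, -0.20, -0.23 and -0.02), as were 5.7% of all tested probes, while STAT5A was 0.15 on array 3. Without array 1 they were -0.14 (STAT5A) and -0.17 (STAT5B), and without array 3 -0.44 and -0.41. JAK1, a cytokine receptor kinase, was -0.26 (SE 0.16). Both JAK1 and BCL2L1, another gene of this list, were also below 0 on 4 of 4 arrays. IRF1, an interferon-responsive factor, was -0.28 (SE 0.20). IRF1 was 0.57 on array 3, and its fit was -0.05 without array 1 and -0.51 without array 3. The 4 probes of PRL, the hormone itself, reached at most 3 of 8 readings above background. For orexin itself, the precursor gene HCRT was 0.01 (SE 0.17), and its receptors HCRTR1 and HCRTR2 reached at most 1 and 2 of 8 readings.

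**Figure D4:**
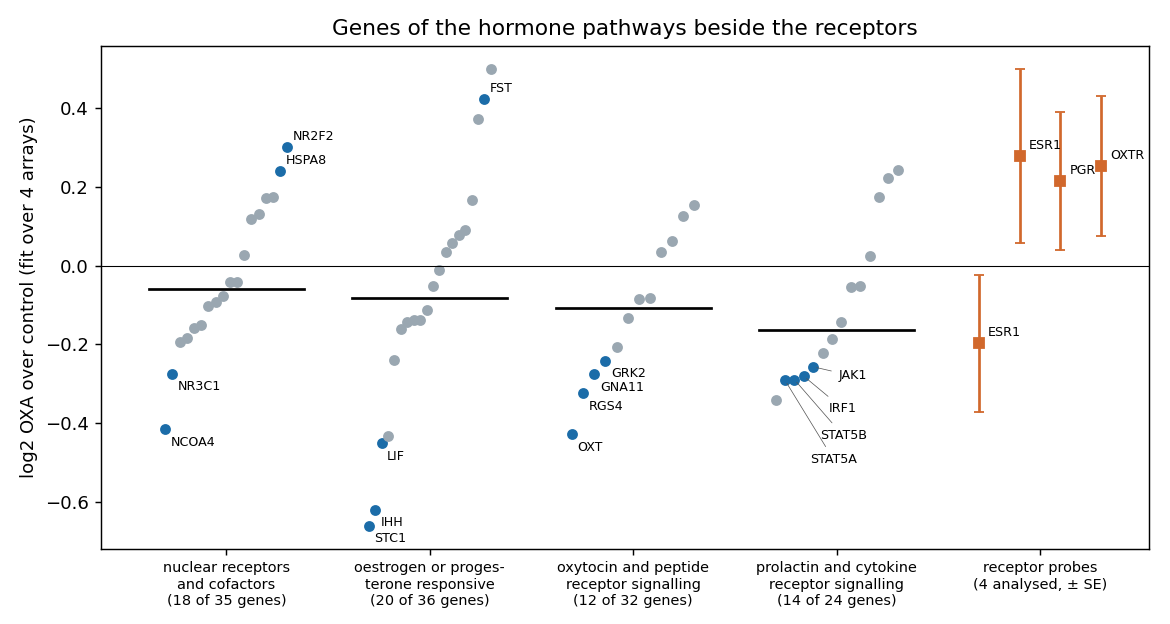
Log2 ratio of OXA over control (limma fit over 4 arrays) for the tested genes of 4 hormone pathway lists in order of value, with black lines at the list medians and blue points for the genes named in the text. The 4 tested receptor probes are orange squares ± SE. All 4 medians lie between -0.16 and -0.06, with single genes from -0.66 to 0.50.

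Ratios of cell type markers differed between the arrays, also on those where the receptors were highest and lowest. The 3 tested stromal fibroblast markers of 9 (DCN, LUM and COL1A2; THY1 was too dim) had a median log2 ratio of 1.39 on array 1 and of -0.25 to 0.14 on the others. The 6 tested epithelial markers of 10 were at -0.92 on array 1 and 0.61 on array 4. The 5 tested smooth muscle markers of 8 were at -1.05 on array 2 and -0.37 to 0.27 on the others, with DES, the muscle intermediate filament desmin, at -2.01 on array 2 and 1.35 on array 1. PGR and OXTR had their highest ratios on array 1 (0.56 and 0.48), and PGR and the brightest ESR1 probe had their lowest on array 2 (-0.14 and -0.63). OXTR was 0.14 on array 2 and had its lowest ratio on array 3 (-0.03). The brightest ESR1 probe was -0.10 on array 1 and had its highest ratio on array 3 (0.07). Summed normalized intensities of the stromal list ran from 22039 to 58594 in control and from 22695 to 75319 in OXA-treated tissue. Those of the epithelial list ran from 73680 to 191720 and from 80560 to 115306, and those of smooth muscle from 22605 to 39315 and from 18571 to 31957. Blood vessel and immune markers varied as much. The 4 tested endothelial markers of 8 had a median of 0.69 on array 1 and of -0.74 to -0.46 on the others, with all 4 fits below 0. The 4 tested macrophage and myeloid markers of 7 were at 0.51 on array 1 and -1.67 on array 4, again with all 4 fits below 0. The 6 tested T and NK lymphocyte markers of 9 were at 0.55 on array 3 and -1.13 on array 4, with 5 fits below 0. The only B cell marker tested of 4, CD79A, was -0.38 (SE 0.18). Summed intensities were 19200 to 59955 in control and 26968 to 41875 in OXA-treated tissue for endothelium, 5864 to 16596 and 5522 to 13355 for macrophages, and 1394 to 5559 and 1732 to 5554 for T and NK cells. Of the 11 conceptus trophectoderm markers 6 were tested and went both ways. TFAP2C, a transcription factor of trophectoderm, was 0.78 (SE 0.19). It was above 0 on 4 of 4 arrays (1.42, 0.08, 0.91 and 0.71), as were 7.14% of all tested probes. IL1B, the form of interleukin 1 beta that is not particular to the conceptus, was -0.87 (SE 0.29). It was -2.68 on array 4, where the macrophage and myeloid list was at -1.67. IL1B2, the conceptus form, was -0.43 (SE 0.18). These 3 had an unadjusted p under 0.05, as did 6.48% of all named genes, and none passed limma's test (adjusted p = 0.698 for each). The other tested markers of this list were -0.24 (GATA3), 0.04 (CYP19A1) and -0.03 (IFNG). CDX2 was above background in 0 of 8 readings. Summed intensities of this list were 6205 to 14997 in control and 6357 to 11921 in OXA-treated tissue. The part of all these markers in the receptor values was not tested.

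The authors' deposited table follows the swapped dyes of the sample labels. If OXA was instead in Cy5 on every array, as the labelling protocol words it, the direction turned for ESR1 (0.19, SE 0.17) and OXTR (-0.03, SE 0.18) and stayed for PGR (0.16, SE 0.17). None passed limma's test then either (adjusted p = 0.986, 0.998 and 0.986), with 1136 probes, or 4.22%, under an unadjusted p of 0.05. The dye term of the fit under the sample labels is by construction the same number (0.19 for ESR1, 0.16 for PGR and -0.03 for OXTR), so it is not a second result. On this term, fitted after loess scaling, 0 of 26927 probes passed limma's test after adjustment (1274, or 4.73%, at an unadjusted p under 0.05). When arrays were centred on their median without loess, ratios split by dye. With OXA in Cy5 they were 0.71 and 1.04 for ESR1, 1.47 and 1.18 for PGR, and 1.39 and 1.06 for OXTR. With OXA in Cy3 they were, in that order, -1.39 and -0.82, -0.85 and -0.45, and -0.87 and -0.30. The fits by the sample labels kept their direction (-0.11, 0.34 and 0.32). Directions on single arrays, and values with OXA read as Cy5 on every array, therefore rest on loess.

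The authors' deposited table of log2 ratios, read as OXA over control, gave OXTR as 0.40, -0.02, 0.02 and 0.50 on arrays 1 to 4. In the authors' deposited table PGR was 0.48, -0.23, 0.14 and 0.36, and the brightest ESR1 probe 0.09, -0.86, 0.03 and -0.05. For the undetected receptors it held large ratios of opposite sign. ESR2 in the authors' deposited table was -0.88, 0.47, -2.12 and 2.22, although its spot on array 3 read 82 in the OXA dye and 163 in the control dye, against negative-control medians of 69 and 158.5. PRLR was -1.08, -0.69, -1.37 and 0.27 in the authors' deposited table, from spots marked in 0 of 8 readings as well above background.

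**Figure D5:**
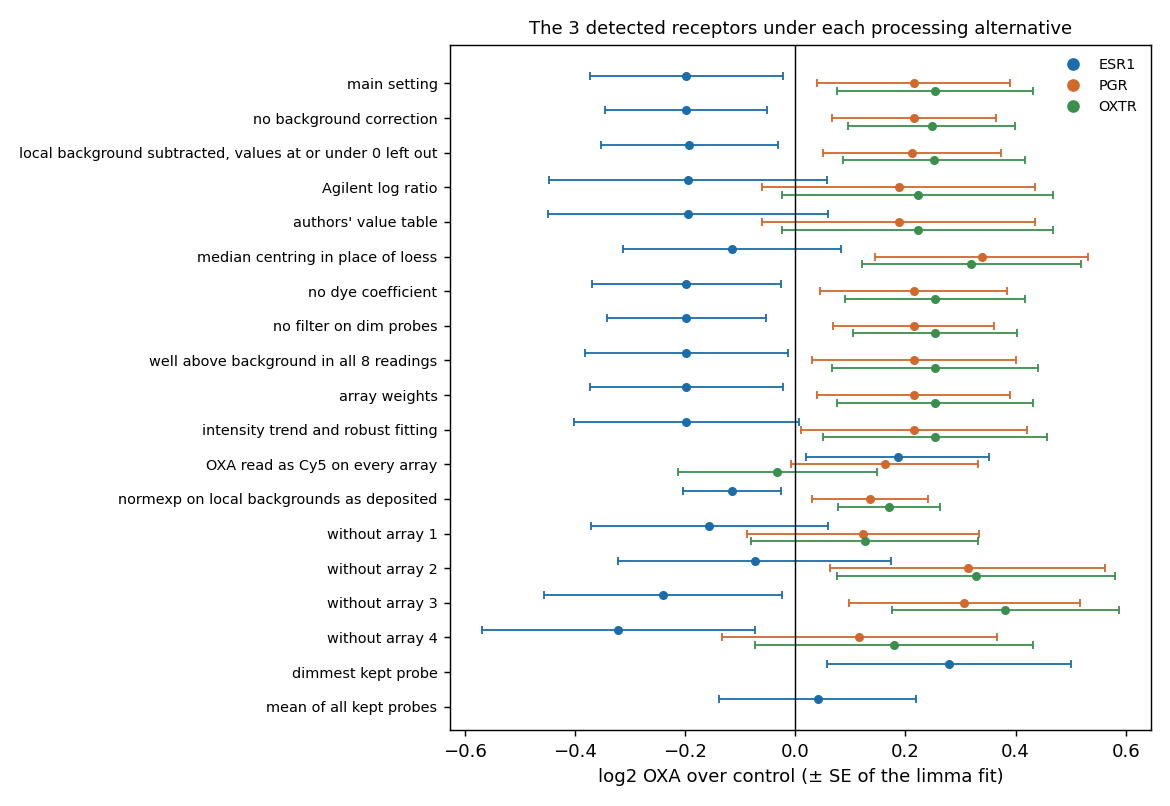
Log2 ratio of OXA over control ± SE of the limma fit for ESR1 (brightest probe unless stated), PGR and OXTR under the main setting and each processing alternative. PGR stays above 0 in all 16 alternatives and OXTR in 15 of 16, while ESR1 is below 0 in 15 of 18 and above 0 through its second probe, through the mean of its probes and with OXA read as Cy5 on every array. Alternatives that change only the filter, array weights, dye coefficient or variance fitting repeat the main value, so they are not separate checks of direction. The scanner software's ratios and the deposited ones are the same data for these probes, so they are not separate from each other.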

How the data were processed

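Per the file headers, the deposited scanner files held median pixel intensity values of spots and local backgrounds in both dyes. They also held, as deposited, a background-subtracted and dye-normalized log10 value of red over green. Per the file headers, the software was Agilent Feature Extraction, version 10.7.3.1. The authors' deposited table held log2 ratios. Its columns rose with the scanner ratios of OXA over control with slopes of 1.00 to 1.06 over 43420 probes, and its column medians were -0.17, 0.06, -0.06 and 0.09. For the 4 tested receptor probes it held the scanner software's own ratios in log2, with no further centring. Its centring over the other probes stays unknown. Local backgrounds that the scanner software marked as outliers (up to 300583 on array 4, where the Cy3 median was 25) were replaced by the array median, since they had raised the noise estimate of normexp from 19.0 to 2348 in Cy3 of that array. None was at a receptor probe. This repair was chosen after the data were seen.

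Background was then corrected by normexp (offset 50) and each array was scaled by loess. Cy5 over Cy3 was fitted in limma 3.58.1 (R 4.3.3) with an OXA and a dye coefficient, two-sided, adjusted by Benjamini-Hochberg over 26927 probes (2 residual degrees of freedom, 8.68 after moderation). Control and outlier spots were left out. A gene was read through its brightest tested probe. Levels used Aquantile between arrays and are comparable only within a probe. Names came from RefSeq accessions matched without versions to the gene table of Sscrofa11.1 (6700 of 7125 probes with an accession). From each list up to 4 genes of lowest unadjusted p were named, and 3 genes nearest to each receptor. Members and lists were chosen with earlier results of these data known. The limma script was tested on simulated data. Alternatives covered background, scaling, filter, weights, dye reading and arrays left out. With an array left out the dye coefficient stayed, so the array alone in its dye had the weight of the other 2 together.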

Additional observations from a re-analysis of the deposited data

Results flagged for a closer look

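Of 41 sets of 4 values checked (ratios, control levels and OXA levels of the 8 receptor probes and ratios of the 17 other genes named from the lists), 1 had a sample far from the rest: the second ESR1 probe, A_72_P491067, with a log2 ratio of 1.16 on array 1 against -0.08 to 0.09 on arrays 2 to 4. Its gap was 0.862 of the range, above Dixon's 95% critical value for 4 values, which chance passes in about 1 set in 20. Array 1 was on a slide of its own, and its control spot was not well above background.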

How the results depend on the processing

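PGR stayed above 0 in all 16 alternatives (0.12 to 0.34), OXTR in 15 of 16 (-0.033 to 0.38) and ESR1 below 0 in 15 of 18 (-0.32 to 0.28), and none was called in any. These are not counts of separate checks of direction. Changing only the filter, weights, dye coefficient or variance fitting repeats the main value. The scanner software's ratios and the deposited ones are the same data for these probes, and both gave -0.19 for ESR1, 0.19 for PGR and 0.22 for OXTR. Leaving out 1 array gave 0.12 to 0.31 for PGR, 0.13 to 0.38 for OXTR and -0.32 to -0.07 for ESR1. In these fits the array left alone in its dye had more weight than each of the others. The reversed values were ESR1 at 0.28 through its second probe (both dyes above background on array 4 only), 0.040 through the mean of its probes and 0.19 with OXA read as Cy5 on every array, and OXTR at -0.033 in that reading. In that reading NCOA4 was 0.073, NR3C1 0.0017, HSPA8 -0.010, GRK2 0.0073, STAT5A 0.15 and IRF1 0.39, and the medians of the oxytocin and prolactin lists were 0.025 and -0.014, and that of the nuclear receptor list 0.012 (0.0067 without array 2). The cause was not tested. HCRT turned to -0.014 with Agilent's log ratio and with the authors' table, and ran from -0.082 to 0.10 with 1 array left out, with -0.026 without array 1 and -0.082 without array 4. The other 260 of 270 values of named list genes, those that repeat the main value included, kept their direction and stayed uncalled. With normexp on backgrounds as deposited, ESR1 was -0.11, PGR 0.14 and OXTR 0.17. Counts of probes past an adjusted p of 0.05 ran from 0 to 35 with 1 array left out, against 0. The residual of those fits came only from the 2 arrays that shared a dye, so these counts are not read as effects of OXA. Counts at an unadjusted p under 0.05 were 2702 with median centring in place of loess, 829 among 13594 probes above background in all 8 readings, 1136 with OXA read as Cy5 on every array, 500 with backgrounds as deposited and 441 to 3963 with 1 array left out, against 1713. Low signal over background limits ESR2, PRLR and 3 of 4 ESR1 probes. Each ratio already pairs OXA with control on its array, so the fits were paired by array. No further pairing could be made because the arrays form 1 group.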
